A study of Mus musculus with 25 samples.

Results

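Transcripts of 8 lipolysis genes were followed in perigonadal white adipose tissue (pgWAT) of refed male mice. These were the lipases Pnpla2, Pnpla3, Pnpla5, Lipe and Mgll and the regulators Abhd5, G0s2 and Hilpda, out of 25897 genes tested. The genes were chosen by name, as all probes of the array that carry one of these gene symbols. They had 15 probes, of which 14 passed the filter on weak spots, and each of the 8 genes kept at least 1 probe. The 25 arrays came from C57BL6/J mice. All mice had been fasted for 24 h and then given food and drinking water with 20% glucose for 18 h. Their age is not given in the sources used here. ChREBPβ KO mice (n = 6) lack exon 1b of Mlxipl, which encodes the glucose-responsive transcription factor ChREBP, after CRISPR/Cas9 editing, and therefore lack the short ChREBPβ isoform in every tissue. They were set against ChREBPβ WT mice (n = 7). Total ChREBP KO mice (n = 5) carry a null Mlxipl allele in the whole body, so that ChREBPα and ChREBPβ are both missing, and were set against total ChREBP WT mice (n = 7). Both deletions are in the germline and act in all organs, and the refed state was the only one measured.

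In adipocytes, stored triglyceride is broken down in steps. Adipose triglyceride lipase, encoded by Pnpla2, removes the first fatty acid, hormone-sensitive lipase (Lipe) acts mainly on the diglyceride, and monoglyceride lipase (Mgll) releases the last fatty acid. Abhd5 (CGI-58) activates Pnpla2, while G0s2 and Hilpda inhibit it. Pnpla3 is a relative of Pnpla2 that is known as a target of the lipogenic factors SREBP-1c and ChREBP, and Pnpla5 is a further lipase of the same family. Insulin, which rises on refeeding, restrains lipolysis. Protein levels, phosphorylation and enzyme activity were not measured.

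The level of a probe is the log2 of its median spot intensity after quantile normalisation. It depends on the probe, so levels of different genes or probes were not ranked against each other. Raw intensities had medians of 84 to 127 over the arrays and local backgrounds of 15 to 22, and arrays within a group correlated at 0.971 to 0.997. At its brightest probe Mlxipl was lower in the total ChREBP knockout (log2 difference -1.75, SE 0.15, limma adjusted p 3.17e-08), and the groups did not overlap. In the ChREBPβ line the same probe differed by -0.73 (adjusted p 0.14), again with no overlap. The other Mlxipl probes differed by -0.66 and 0.08 in the total ChREBP line, and where they lie relative to the deletions was not determined. All 10 adipocyte markers, such as Adipoq, were measured, and their mean log2 level was 16.10 to 16.53 over all arrays. Of these markers 2 were higher and 1 lower past the threshold in total ChREBP KO, and 0 passed in ChREBPβ KO. In total ChREBP WT against ChREBPβ WT, 2 were higher and 1 lower. Transcripts of liver were also present. The mean log2 level of 10 liver genes, among them Alb and Apoa1, was 12.95 to 16.44 in ChREBPβ WT, 11.61 to 15.80 in ChREBPβ KO, 8.33 to 13.65 in total ChREBP WT and 8.08 to 9 in total ChREBP KO. All 10 liver genes were higher in ChREBPβ WT than in total ChREBP WT past the threshold. For the 8 genes, values that were called, or became so, are therefore given also from a fit with this liver level as a covariate, and from a fit without the arrays above 11 in the total ChREBP line (3 WT arrays) or above 15 in the ChREBPβ line (4 WT and 2 KO arrays). The 10 macrophage markers had a mean of 11.94 to 13.06 with 0 of them past the threshold in any comparison. In total ChREBP KO, 1 of 8 brown adipocyte markers was higher, and 1 of 8 progenitor and 1 of 10 liver markers were lower past the threshold. Among all genes 9.36% passed there. Of 10 epididymis and vas deferens markers 5 had no kept probe, and the mean of the others reached 6.69, 6.92 and 6.79 in ChREBPβ WT, ChREBPβ KO and total ChREBP KO, but 9.24 on 1 array in total ChREBP WT, whose median was 6.98. In bulk tissue, fewer adipocytes and less RNA per adipocyte cannot be told apart.

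**Figure D1:**
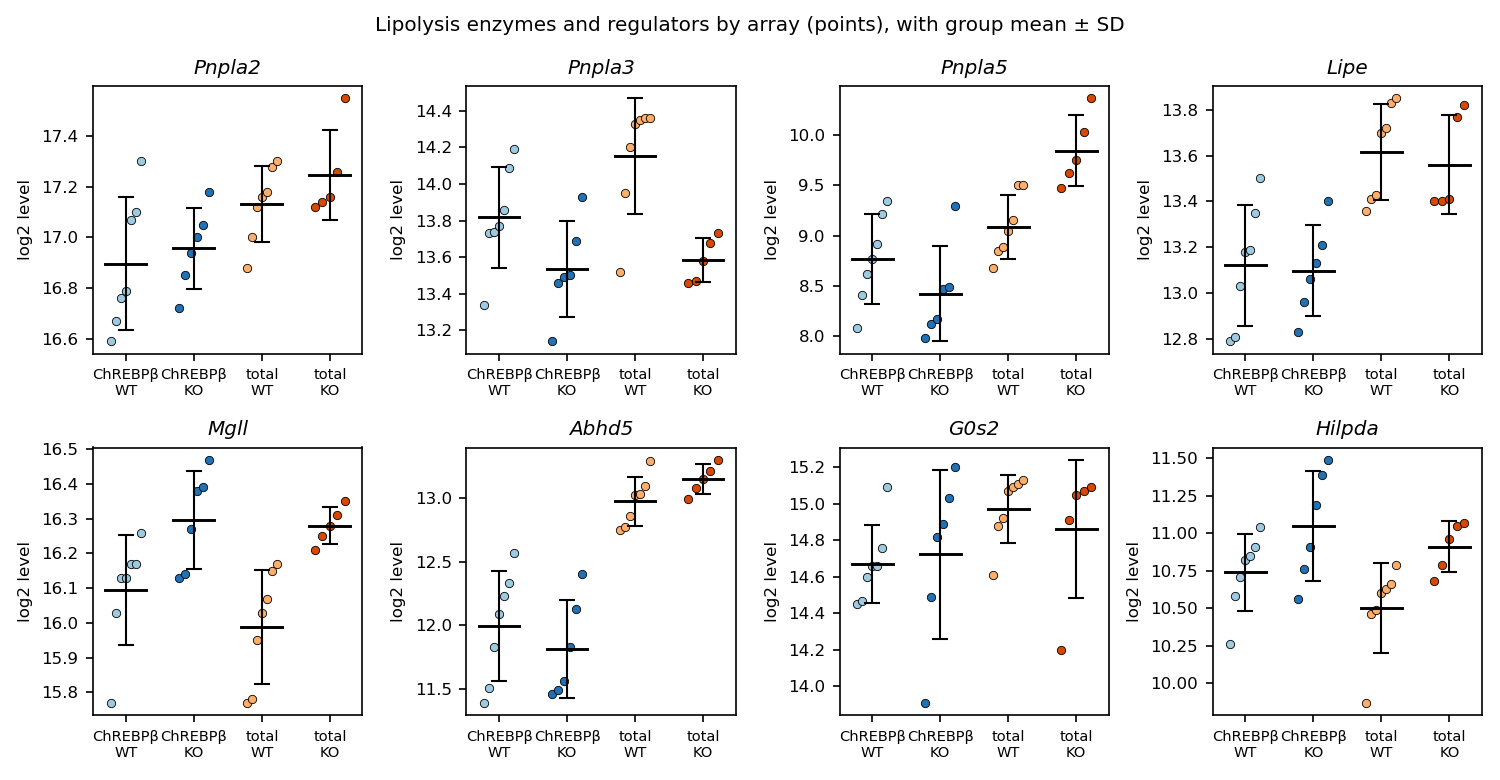
Log2 level of each gene (y axis, its own range per panel) at its brightest probe on each array, for the 4 groups on the x axis. Points are arrays, horizontal lines are means and bars are SD. For Mgll the 5 total ChREBP KO arrays, at 16.21 to 16.35, sit above the 7 wild-type arrays, and for Abhd5 both total ChREBP groups, from 12.75 upward, sit above both ChREBPβ groups.

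The question of the first comparison was which transcripts depend on ChREBP as a whole. Between total ChREBP KO and its wild type, 2 of the 8 genes passed the threshold, with Pnpla3 lower by 1.47-fold and Mgll higher by 1.24-fold. Among all 25897 genes, 9.36% passed in this comparison, 5.74% higher and 3.62% lower. Pnpla2, Lipe, Abhd5 and G0s2, which encode the main triglyceride and diglyceride lipases and the activator and inhibitor of Pnpla2, did not pass. Pnpla5 and Hilpda missed the threshold with adjusted p values of 0.0536 and 0.0741. Without adjustment, 4 of the 8 genes had a limma p under 0.05, against 21.0% of all genes, and the median log2 difference of the 8 genes was 0.15 against 0.02 for all genes.

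Pnpla3 was read by a pair of probes, shown by their first 30 bases because both recorded a lower level in total ChREBP KO but differed in the other comparisons.
A_51_P389265 (mm9, chr15:84019823-84019882, plus strand): gcaaactagtggaacagcagaaggattgaa
A_55_P2025514 (mm9, chr15:84016440-84016499, plus strand): tatccagtggctacaatgggcgacatccca
Neither shares a run of 20 bases with a probe of another gene on the array. At A_51_P389265, the brighter probe, total ChREBP WT arrays had a lowest log2 level of 13.52, a median of 14.33 and a highest of 14.36, and the total ChREBP KO arrays were at 13.46, 13.47, 13.58, 13.68 and 13.73. Of the 5 knockout arrays 2 lay below every wild-type array, and all 5 lay below 6 of the 7 wild-type arrays, since total ChREBP WT replicate 2 was the low one at 13.52. The fitted log2 difference was -0.56 (SE 0.16, 95% CI -0.89 to -0.23, limma adjusted p 0.0289), and it was -0.45, -0.73, -0.89 and -0.35 within wash batches 1 to 4. Leaving out any one of 8 arrays (total ChREBP KO replicates 1, 3 or 7, WT replicates 3, 5, 6, 7 or 8) took the adjusted p to between 0.0529 and 0.104, while the difference stayed within -0.67 to -0.49 over all 12 fits without an array. Without WT replicate 2, it was -0.67 (adjusted p 0.00249).

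At A_55_P2025514, total ChREBP WT arrays ran from 12.71 over a median of 13.08 to 13.17, and total ChREBP KO arrays were at 12.12, 12.55, 12.55, 12.62 and 12.64. The groups did not overlap. The log2 difference was -0.52 (SE 0.11, adjusted p 0.00439), and -0.57, -0.47, -0.85 and -0.24 within the wash batches. With the liver level as a covariate, the differences were -0.69 (adjusted p 0.0228) at the brighter and -0.54 (adjusted p 0.017) at the dimmer probe, and without the 3 liver-rich arrays -0.67 (adjusted p 0.0147) and -0.58 (adjusted p 0.0121). The Pnpla3 result is thus as large without the arrays highest in liver transcripts.

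Mgll, the monoglyceride lipase, had total ChREBP WT arrays at a lowest log2 level of 15.77, a median of 16.03 and a highest of 16.17 (A_55_P2063316). The 5 total ChREBP KO arrays were at 16.21, 16.25, 16.28, 16.31 and 16.35. They lay close together, with an SD of 0.05 against 0.16 in WT, and above every wild-type array. Mgll was the only one of the 8 genes at its brightest probe whose total ChREBP groups did not overlap, as was the case for 7.58% of all genes. The log2 difference was 0.31 (SE 0.08, 95% CI 0.13 to 0.48, adjusted p 0.0256), with 0.41, 0.26, 0.12 and 0.36 within the wash batches. Another Mgll probe, A_55_P2063312, designed on another transcript variant, gave 0.16 (SE 0.09, adjusted p 0.348), and there the groups overlapped. The difference at the brighter probe was 0.21 (adjusted p 0.219) with the liver level as a covariate and 0.26 (adjusted p 0.135) without the liver-rich arrays, so that the call was lost in both. Of all genes 6.12% and 6.24% passed in these fits, against 9.36% in the main fit. The Mgll call was also lost without total ChREBP KO replicate 1, 2 or 4 or WT replicate 3 or 4 (0.27 to 0.32, adjusted p 0.0528 to 0.0808) and with processed signals scaled to the 75th percentile (0.17, adjusted p 0.205).

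Pnpla5 had weak but detectable signals, with raw intensities of 273 to 1067 at A_66_P122294. Total ChREBP WT arrays ran from 8.68 over a median of 9.05 to 9.5 on the log2 scale, and total ChREBP KO arrays were at 9.47, 9.62, 9.75, 10.03 and 10.37. All but 1 of the knockout arrays lay above the highest wild-type array. The log2 difference of 0.72 (SE 0.23, 95% CI 0.25 to 1.20) had an adjusted p of 0.0536, not past the threshold, and was 0.58, 0.25, 1.41 and 0.70 within the wash batches. The dimmer probe A_51_P334804 was past it, with 0.52 (SE 0.16, adjusted p 0.0433), and again with the liver covariate (0.65, adjusted p 0.0335) but not without the liver-rich arrays (0.52, adjusted p 0.145). Of the 14 processing alternatives 7 passed, 1 of them the mean of both probes (0.62, adjusted p 0.043), with adjusted p values from 0.0143 with the liver covariate (0.99) to 0.149 with the replicate number as a block (0.72), and with 0.104 without the liver-rich arrays (0.83). Of the 12 fits without 1 array only 2 passed, with differences of 0.52 to 0.83 and adjusted p values of 0.0428 to 0.227. Pnpla5 and Pnpla3 are neighbours on chromosome 15, with probes 73.3 kb apart in mm9, and their differences had opposite signs in total ChREBP KO.

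Pnpla2 (A_55_P1961039) had total ChREBP WT arrays at 16.88 to 17.30 with a median of 17.16, and total ChREBP KO arrays at 17.12, 17.14, 17.16, 17.26 and 17.55. The groups overlapped, and the log2 difference of 0.12 (SE 0.12, 95% CI -0.12 to 0.37, adjusted p 0.649) leaves room for a change of this interval's size in either direction. Lipe (A_55_P2728901) was at 13.36 to 13.85 with a median of 13.70 in total ChREBP WT, and at 13.40, 13.40, 13.41, 13.77 and 13.82 in total ChREBP KO. Its difference was -0.06 (SE 0.14, 95% CI -0.35 to 0.22, adjusted p 0.876), and the second Lipe probe, A_51_P435363, gave -0.09 (SE 0.09, adjusted p 0.677). The remaining Lipe probe, A_51_P174133, designed on another transcript, was not well above background on any of the 25 arrays, with raw intensities of 12.5 to 25.

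Of the regulators, Hilpda, a hypoxia-inducible inhibitor of Pnpla2, had total ChREBP WT arrays from 9.87 over a median of 10.60 to 10.79. Its total ChREBP KO arrays were at 10.68, 10.79, 10.96, 11.05 and 11.07, and 4 of the 5 lay at or above the highest wild-type array once unrounded values are compared. The log2 difference was 0.45 (SE 0.15, 95% CI 0.13 to 0.76, adjusted p 0.0741), with 0.18, 0.41, 0.27 and 0.89 within the wash batches. Total ChREBP WT replicate 2 was the low array at 9.87, and without it the difference was 0.34 (adjusted p 0.115). It was 0.24 (adjusted p 0.472) with the liver covariate and 0.33 (adjusted p 0.251) without the liver-rich arrays. It passed the threshold with the replicate number as a block (0.45, adjusted p 0.0418), with array quality weights (0.37, adjusted p 0.0425) and without WT replicate 5 (0.51, adjusted p 0.0453).

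Abhd5, the activator of Pnpla2, had total ChREBP WT arrays at 12.75 to 13.29 with a median of 13.02 and total ChREBP KO arrays at 12.99, 13.08, 13.15, 13.21 and 13.30 (A_55_P2177233). The groups overlapped and the difference was 0.18 (SE 0.19, adjusted p 0.698). The other 2 Abhd5 probes gave 0.19 (adjusted p 0.727) and -0.24 (adjusted p 0.569), the last one designed on another transcript. G0s2, the inhibitor, was at 14.61 to 15.13 with a median of 15.07 in total ChREBP WT and at 14.20, 14.91, 15.05, 15.07 and 15.09 in total ChREBP KO. Its difference was -0.07 (SE 0.17, 95% CI -0.42 to 0.29, adjusted p 0.897), and total ChREBP KO replicate 4 at 14.20 was the low array.

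**Figure D2:**
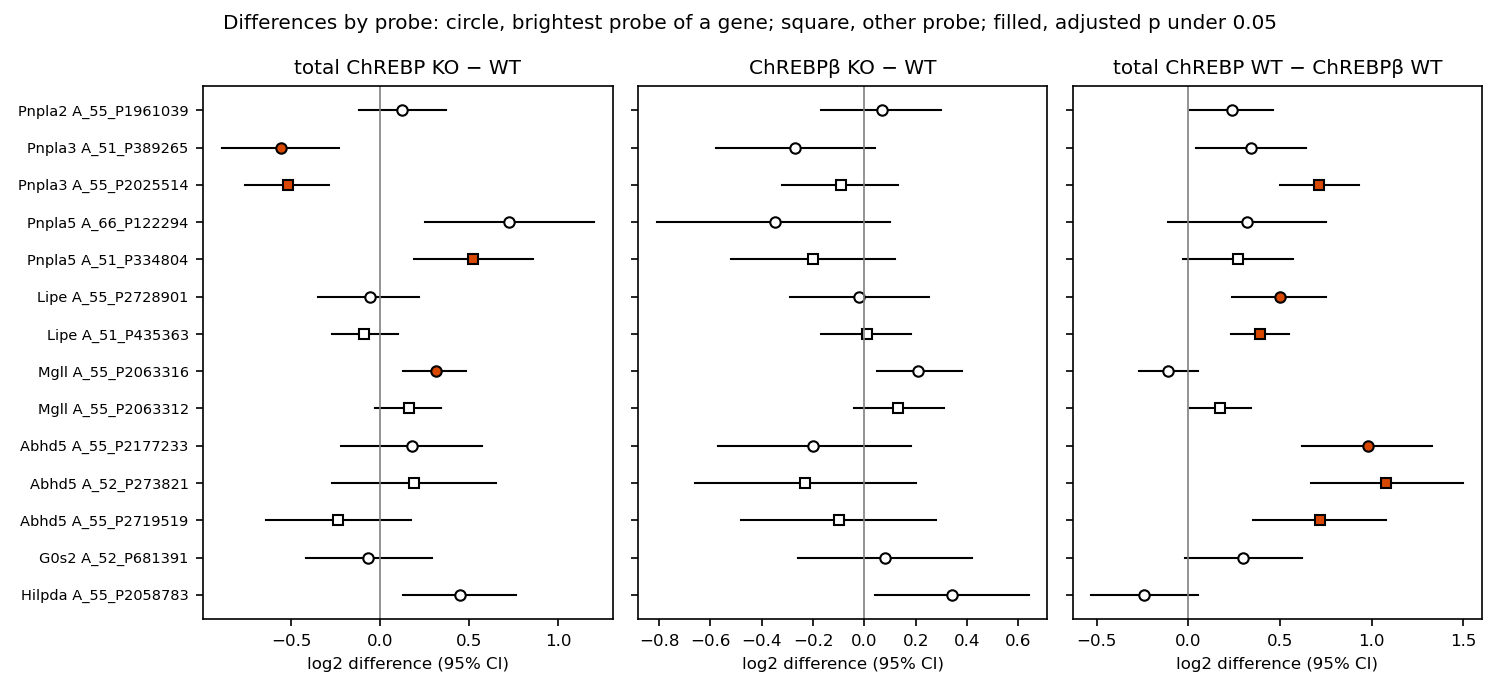
Log2 difference with its 95% confidence interval (x axis) for each kept probe (y axis) in 3 comparisons. Circles are the brightest probe of a gene, squares its other probes, and filled symbols have a limma adjusted p under 0.05. Both Pnpla3 probes lie left of 0 in total ChREBP KO, no symbol is filled in ChREBPβ KO, and all Lipe and Abhd5 probes lie right of 0 between the wild types.

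The second comparison asked which of these transcripts depend on ChREBPβ alone. In ChREBPβ KO against ChREBPβ WT, limma called 0 of the 8 genes, against 0.00772% of all genes, and 2 of the 8 had an unadjusted p under 0.05, namely Mgll and Hilpda, against 9.71% of all genes. No member had groups that did not overlap, as was the case for 0.0695% of all genes. Pnpla3 at its brighter probe ran from 13.34 over a median of 13.77 to 14.19 in ChREBPβ WT and from 13.14 over 13.49 to 13.93 in ChREBPβ KO. The difference of -0.27 (SE 0.15, 95% CI -0.58 to 0.04, adjusted p 0.616) had the same sign in all wash batches (-0.08, -0.04, -0.41 and -0.49), whereas the dimmer probe gave -0.09 (SE 0.11, adjusted p 0.867). The interval still includes a fall as large as the fitted one in the total ChREBP line.

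Mgll ran from 15.77 over a median of 16.13 to 16.26 in ChREBPβ WT and from 16.13 over 16.32 to 16.47 in ChREBPβ KO. Of the 6 knockout arrays 4 lay above the highest wild-type array. The difference was 0.21 (SE 0.08, 95% CI 0.05 to 0.38, adjusted p 0.416). Hilpda ran from 10.26 over 10.82 to 11.04 in ChREBPβ WT and from 10.56 over 11.05 to 11.49 in ChREBPβ KO, with 3 of the 6 knockout arrays above all wild-type arrays and a difference of 0.34 (SE 0.14, 95% CI 0.04 to 0.64, adjusted p 0.478).

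Pnpla5 was at 8.08 to 9.35 in ChREBPβ WT and 7.98 to 9.30 in ChREBPβ KO, with a difference of -0.35 (SE 0.22, adjusted p 0.665). For Pnpla2 (0.07, SE 0.11), Lipe (-0.02, SE 0.13) and G0s2 (0.08, SE 0.16), the differences were smaller than their errors. Abhd5 differed by -0.20 (SE 0.18, adjusted p 0.81). Without the 6 liver-rich arrays of this line, which left 3 WT and 4 KO arrays, Abhd5 was lower in ChREBPβ KO by -0.81 (SE 0.14, adjusted p 0.0195), and at its second probe by -0.88 (adjusted p 0.0463), while its remaining probe, A_55_P2719519, gave -0.16 (SE 0.28, adjusted p 0.789). In that fit 1.29% of all genes passed. At the brightest probe the 4 WT arrays left out were the lowest of WT (11.39, 11.51, 11.83 and 12.09). The 2 KO arrays left out were the highest of KO (12.13 and 12.40). The lower value thus depends on which arrays were dropped, and its cause was not tested. With the liver level as a covariate over all arrays, Abhd5 differed by -0.17 (SE 0.19), and 0% of all genes passed.

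Whether the knockout effect differed between lines was tested directly, and 0 of the 8 genes passed in limma, against 3.49% of all genes, with 1 at an unadjusted p under 0.05. That gene was Pnpla5, whose effect was higher by 1.08 in the total ChREBP line (SE 0.32, 95% CI 0.42 to 1.73, adjusted p 0.0695) and higher in each wash batch (1.35, 1.13, 1.83 and 0.41). This difference passed the threshold with the liver covariate (1.19, adjusted p 0.0221), without the liver-rich arrays (1.42, adjusted p 0.036), with array quality weights (1.08, adjusted p 0.0311) and without ChREBPβ WT replicate 6 (1.20, adjusted p 0.0363) or ChREBPβ KO replicate 8 (1.28, adjusted p 0.0036). At the dimmer probe it was 0.72 (adjusted p 0.0829), 0.78 (adjusted p 0.049) with the liver covariate and 0.87 (adjusted p 0.0896) without the liver-rich arrays. Pnpla3 fell in total ChREBP KO and not past the threshold in ChREBPβ KO, but its difference of effects was -0.29 (SE 0.22, 95% CI -0.74 to 0.16, adjusted p 0.701) at the brighter and -0.43 (SE 0.16, adjusted p 0.181) at the dimmer probe. For Mgll the difference of effects was 0.09 (SE 0.12) and for Hilpda 0.11 (SE 0.21). Abhd5 had a difference of effects of 0.37 (SE 0.26, adjusted p 0.659) over all arrays and 0.39 (adjusted p 0.579) with the liver covariate. Without the liver-rich arrays it passed the threshold, with 1.06 (SE 0.20, adjusted p 0.0123) and 1.19 (adjusted p 0.0349) at its first and second probes, but not at A_55_P2719519 (0.12, adjusted p 0.818). That fit left out the ChREBPβ WT arrays lowest and the ChREBPβ KO arrays highest for Abhd5 at its brightest probe, as given above. Of all genes, 4.07% passed with the liver covariate and 4.34% without the liver-rich arrays.

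Pnpla3 was set against Pnpla2 within each array, as the log2 level of the first minus that of the second. The value contains the brightness of both probes, so only its differences between groups can be read, and as it combines chosen genes it was not tested. It was -3.60 to -2.53 with a median of -2.85 in total ChREBP WT, and -4.09 to -3.46 with a median of -3.54 in total ChREBP KO. The groups overlapped through 1 low wild-type array, replicate 2 at -3.60. It was -3.37 to -2.68 with a median of -3.11 in ChREBPβ WT, and -3.86 to -3.01 with a median of -3.36 in ChREBPβ KO.

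**Figure D3:**
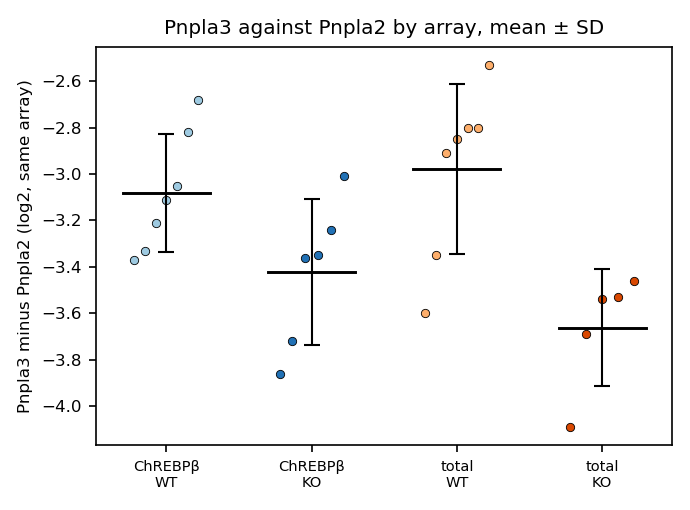
Log2 level of Pnpla3 minus that of Pnpla2 on the same array (y axis) in the 4 groups (x axis), with points for arrays, lines for means and bars for SD. The total ChREBP KO arrays sit at or below -3.46, where 1 of the 7 total ChREBP WT arrays, at -3.60, is also found.

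Both knockout comparisons have their own wild types, and these were compared with each other in turn. This comparison shares its arrays with the knockout comparisons, and mouse line and liver transcripts cannot be told apart in it. In total ChREBP WT against ChREBPβ WT, 2 of the 8 genes passed, Lipe and Abhd5, both higher, against 22.1% of all genes. Groups did not overlap for 1 of the 8 genes, Abhd5, and for 5.52% of all genes. Abhd5 ran from 12.75 upward in total ChREBP WT, as given above, and from 11.39 over a median of 12.09 to 12.57 in ChREBPβ WT. It was 1.97-fold higher in total ChREBP WT (log2 difference 0.98, SE 0.17, adjusted p 0.000405), by 1.42, 0.75, 1.01 and 0.61 within the wash batches, and its other probes gave 1.08 (adjusted p 0.000609) and 0.72 (adjusted p 0.00597). ChREBPβ KO arrays were as low as ChREBPβ WT arrays, at 11.46 to 12.40. With the liver covariate the difference was 1.08 (SE 0.29, adjusted p 0.0291). Without the liver-rich arrays of both groups it was 0.42 (SE 0.21, adjusted p 0.26) on 4 and 3 arrays. The liver levels of the arrays that remained were still apart, at 8.33 to 10.43 in total ChREBP WT and 12.95 to 14.99 in ChREBPβ WT. That fit therefore does not even out the liver content of the wild types. The other Abhd5 probes likewise passed with the covariate (adjusted p 0.0232 and 0.00601) and not without the liver-rich arrays (adjusted p 0.33 and 0.149). Of all genes, 7.15% passed with the covariate and 4.56% without those arrays. Markers of other cells moved here too. Past the threshold were 4 of 8 brown adipocyte markers, all higher in total ChREBP WT, such as Cidea (2.01, adjusted p 0.00169) and Ppargc1a (1.13, adjusted p 2.73e-05), 3 of 7 measured muscle markers, also higher, such as Myh1 (0.73, adjusted p 0.00888), 3 of 6 measured kidney tubule markers, all lower, such as Slc22a6 (-2.02, adjusted p 0.0445), and 2 of 10 lymphocyte markers, both lower, Cd79b (-0.88, adjusted p 0.0223) and Cd4 (-0.49, adjusted p 0.00567). Also past it were 1 of 8 progenitor and 1 of 5 measured epididymis and vas deferens markers, both higher in total ChREBP WT. The kidney markers varied widely in ChREBPβ WT, where their mean log2 level had a median of 7.72 and a highest of 10.27. There Slc22a6 had an SD of 2.72. The part of all these markers in the results was not tested.

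Lipe was at 12.79 to 13.50 with a median of 13.18 in ChREBPβ WT and at 13.36 to 13.85 in total ChREBP WT, and 4 of the 7 total ChREBP WT arrays lay above all ChREBPβ WT arrays. The difference was 0.50 (SE 0.12, adjusted p 0.00647), and 0.39 (SE 0.08, adjusted p 0.00135) at the second probe. The call was lost with the liver covariate (0.36, adjusted p 0.323, and 0.23, adjusted p 0.306) and without the liver-rich arrays (0.29, adjusted p 0.409, and 0.21, adjusted p 0.223). The SE at the brighter probe was 0.21 and 0.20 in these fits. Of all genes 7.15% and 4.56% passed in them, against 22.1% in the main fit, so the loss is not particular to Lipe. The Pnpla3 probes disagreed here. The brighter one gave 0.34 (SE 0.14, adjusted p 0.0977), while at the dimmer one all 7 total ChREBP WT arrays, at 12.71 or above, lay over the ChREBPβ WT arrays, which ended at 12.59 (0.71, SE 0.10, adjusted p 8.34e-05). The dimmer probe also passed with the liver covariate (0.67, adjusted p 0.026) and without the liver-rich arrays (0.57, adjusted p 0.0381). In the latter fit the liver levels of the wild types were still apart, as given above. Differences of the other genes were 0.24 for Pnpla2, 0.32 for Pnpla5, -0.11 for Mgll, 0.30 for G0s2 and -0.24 for Hilpda, none past the threshold. With the liver covariate Hilpda passed it (-0.68, SE 0.20, adjusted p 0.0462) and Pnpla5 was at 0.89 (SE 0.32, adjusted p 0.0928), whereas without the liver-rich arrays they were at -0.02 (adjusted p 0.963) and 0.24 (adjusted p 0.716).

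**Figure D4:**
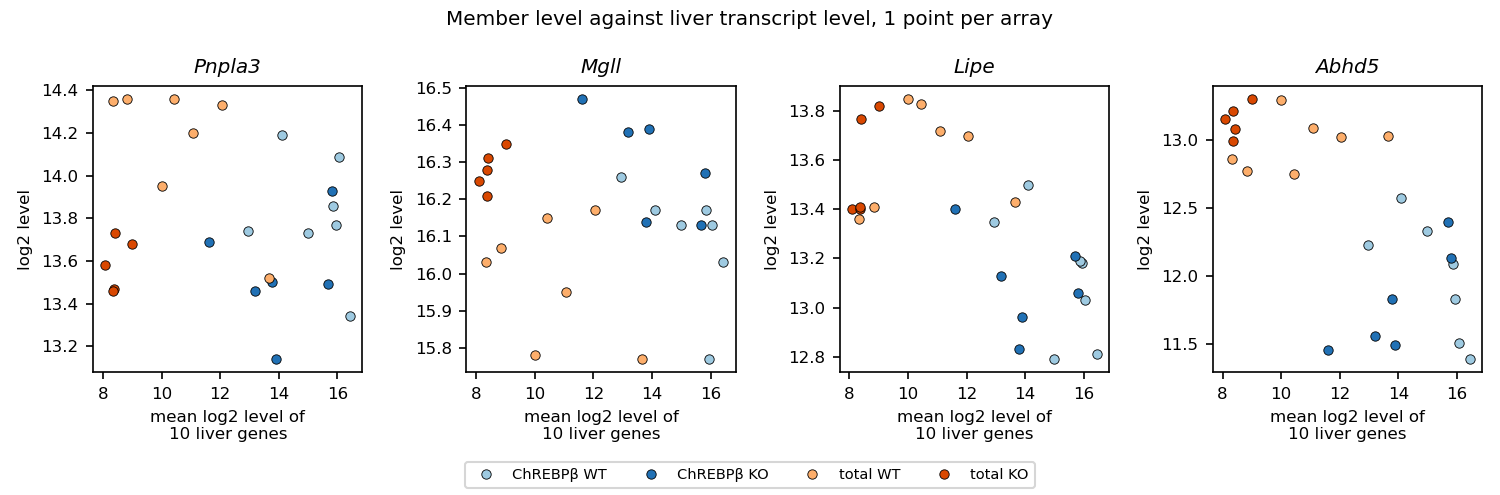
Log2 level of Pnpla3, Mgll, Lipe and Abhd5 (y axes) against the mean log2 level of 10 liver genes (x axis), 1 point per array, coloured by group. The ChREBPβ arrays lie at liver levels of 11.61 and above, and the total ChREBP KO arrays at 9 and below. Abhd5 in the ChREBPβ line stays at 12.57 and below. In ChREBPβ WT it is at 12.23 to 12.57 below a liver level of 15 and at 11.39 to 12.09 above it. In ChREBPβ KO it is at 11.46 to 11.83 below that level and at 12.13 and 12.40 above it.

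The genes of the wider pathway were grouped in the same way, with values from the fit of all arrays without the liver covariate. Their values in the fits that take account of liver transcripts were not examined. Of 38 genes of lipolysis signalling, which covers receptors, G proteins, cyclic AMP synthesis and breakdown, protein kinase A and insulin signalling, 7 were higher and 0 lower in total ChREBP KO. The median log2 difference of the list was 0.06, against 0.02 for all genes. Adrb3, the adipocyte receptor for catecholamines, rose from a log2 level of 14.98 ± 0.18 (SD, n = 7) to one of 16.19 ± 0.12 (SD, n = 5) in the total ChREBP knockout (difference 1.23, SE 0.16, adjusted p 1.67e-05). Tshr, the thyrotropin receptor, was higher by 0.99 (adjusted p 3.66e-05), Plaat3, a phospholipase that restrains cyclic AMP through prostaglandin E2, by 0.55 (adjusted p 0.000152), and Prkaca, the catalytic subunit of protein kinase A, by 0.43 (adjusted p 0.000318). In ChREBPβ KO 0 of the 38 passed in limma, with 5 at an unadjusted p under 0.05, and the effects of the lines differed for 3 of them, among these Adrb3 (1.38, adjusted p 0.000461) and Tshr (0.87, adjusted p 0.00953). The third was Pde3b, the phosphodiesterase that carries the insulin signal (0.62, adjusted p 0.00712), which was not on the rule's list and was chosen with its values known. The wild types differed as well, with 6 of the 38 higher and 6 lower in total ChREBP WT, against 22.1% of all genes called. Adrb3 was lower there (-0.76, adjusted p 0.000875), while Tshr (0.18) and Pde3b (0.07) did not pass.

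Of 11 genes of the lipid droplet coat, 3 were higher and 1 lower in total ChREBP KO. Plin1, which holds Abhd5 back until protein kinase A phosphorylates it, was higher by 0.41 (SE 0.09, adjusted p 0.00303), Cidec by 0.40 (adjusted p 0.01) and Plin4 by 0.53 (adjusted p 0.0251). Plin2, another droplet protein, was lower (-1.23, SE 0.12, adjusted p 1.84e-07), and its effect differed between the lines (-1.31, adjusted p 2.38e-05). Among 21 other hydrolases 1 was higher and 2 were lower. These were Lpl, the lipase that takes up lipid from lipoproteins (0.55, adjusted p 1.14e-05), Ddhd2, a triglyceride hydrolase (-1.51, adjusted p 2.17e-08), and Dagla, a diacylglycerol lipase (-0.31, adjusted p 0.0347). Between the wild types, Plin2 (0.83, adjusted p 2.35e-05) and Ddhd2 (0.58, adjusted p 0.00086) were higher in total ChREBP WT. Plin1 (0.04), Cidec (-0.15), Plin4 (-0.30), Lpl (-0.15) and Dagla (0.15) did not pass there.

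Of 16 transcription regulators of these genes, 6 were higher and 1 was lower in total ChREBP KO. Foxo1, which insulin inactivates and which drives Pnpla2, was higher by 0.60 (adjusted p 0.000221), Klf15 by 0.57 (adjusted p 0.000985) and Nr1h3 by 0.40 (adjusted p 0.00327), while Srebf1, a driver of lipogenesis, was lower (-0.71, adjusted p 4.28e-05). Of 20 lipogenesis genes, 10 were lower and 0 higher, with a median of -0.34. Acaca (-1.91, adjusted p 2.16e-11), Elovl6 (-3.34, adjusted p 1.11e-10), Acly (-1.67, adjusted p 2.28e-09) and Thrsp (-0.95, adjusted p 3.99e-08) had the smallest p values. Pnpla3 at -0.56 had the direction of the lipogenesis genes that passed. Of 16 hypoxia targets, the class to which Hilpda belongs, 2 were higher and 3 lower. They included Bnip3 (1.08, adjusted p 4.42e-06), Pdk1 (-2.29, adjusted p 4.02e-10), Bhlhe40 (-1.76, adjusted p 3.87e-06) and Egln3 (-1.17, adjusted p 2.96e-05). For these 6 lists limma called 0 genes in ChREBPβ KO, with 2 to 5 genes per list at an unadjusted p under 0.05. Between the wild types, 13 of the 20 lipogenesis genes were higher and 2 lower in total ChREBP WT. Acaca (0.68, adjusted p 2.29e-05), Elovl6 (1.31, adjusted p 2.73e-05) and Srebf1 (0.53, adjusted p 0.000323) were higher, while Thrsp (0.13), Foxo1 (0.03), Klf15 (0.03) and Nr1h3 (0.04) did not pass.

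**Figure D5:**
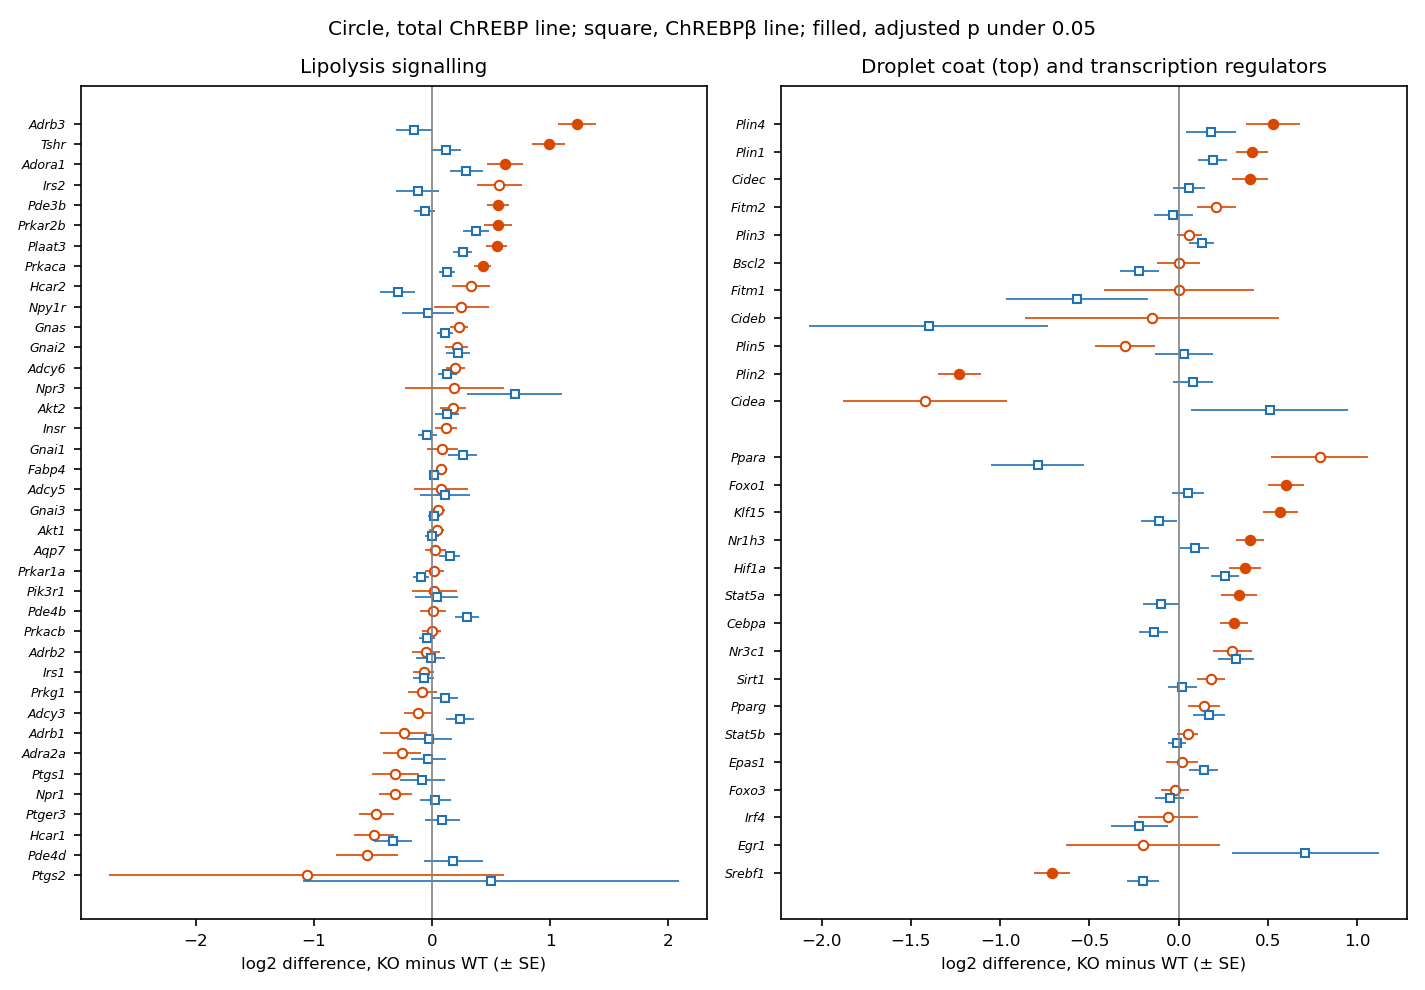
Log2 difference of knockout minus wild type with its SE (x axis) for the genes of lipolysis signalling, the droplet coat and the transcription regulators (y axis). Circles are the total ChREBP line, squares the ChREBPβ line, and filled symbols have a limma adjusted p under 0.05. Among the filled circles Adrb3 at 1.23 lies farthest right and Plin2 at -1.23 farthest left, Cidea at -1.42 is an open circle, and no square is filled.

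The promoters of the 8 genes were read from RefSeq (GRCm38.p6), as windows of 250 bases before to 50 bases after each start, 11 windows in all. They are shown for the genes whose window holds the letters CACGTG, the E-box, of which a pair spaced by 5 bases forms the carbohydrate response element that ChREBP binds, and for Pnpla3, which passed the threshold. The E-box is in capitals.
Pnpla3 (chr15:84167566-84167865, plus strand): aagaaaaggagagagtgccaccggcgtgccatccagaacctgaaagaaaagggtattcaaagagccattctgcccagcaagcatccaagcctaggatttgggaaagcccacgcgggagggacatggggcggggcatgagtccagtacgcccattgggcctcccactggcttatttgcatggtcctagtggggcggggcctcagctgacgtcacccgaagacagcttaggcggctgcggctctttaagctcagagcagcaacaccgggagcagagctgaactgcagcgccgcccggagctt
Pnpla5 (chr15:84123126-84123425, minus strand): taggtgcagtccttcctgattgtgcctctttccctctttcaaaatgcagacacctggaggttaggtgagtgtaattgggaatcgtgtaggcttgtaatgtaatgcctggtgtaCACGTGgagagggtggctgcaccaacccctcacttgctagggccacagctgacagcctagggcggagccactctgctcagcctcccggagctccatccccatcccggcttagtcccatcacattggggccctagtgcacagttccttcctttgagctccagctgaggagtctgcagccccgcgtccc
Mgll (chr6:88724162-88724461, plus strand): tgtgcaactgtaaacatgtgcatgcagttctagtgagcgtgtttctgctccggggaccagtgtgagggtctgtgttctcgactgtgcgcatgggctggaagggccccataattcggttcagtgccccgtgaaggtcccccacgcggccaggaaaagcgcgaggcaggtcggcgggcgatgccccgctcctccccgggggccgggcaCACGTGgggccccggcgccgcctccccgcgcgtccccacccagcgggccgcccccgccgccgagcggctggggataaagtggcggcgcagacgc
Lipe (chr7:25395938-25396237, minus strand): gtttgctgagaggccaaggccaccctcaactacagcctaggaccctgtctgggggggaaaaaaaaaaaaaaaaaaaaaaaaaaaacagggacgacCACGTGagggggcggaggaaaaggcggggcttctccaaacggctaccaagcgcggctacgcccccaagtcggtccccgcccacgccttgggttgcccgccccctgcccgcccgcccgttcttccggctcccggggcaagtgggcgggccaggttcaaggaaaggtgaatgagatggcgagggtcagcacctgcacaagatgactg
CACGTG stood in 3 of the 11 windows (1 each of Pnpla5, Mgll and Lipe), and in 7.15% of 32851 windows of all genes. Its first base lay 137 bases before the start in Pnpla5, 44 in Mgll and 155 in Lipe. The spaced pair, searched on both strands as CACGNG, then 5 free bases, then CNCGTG (N is any base), was found in 0 of the 11 windows and in 0.0457% of all. The letters ACGTG, the core that hypoxia-inducible factors bind and a part of CACGTG, were found on either strand in 5 windows of 4 genes (Pnpla5, Mgll, Lipe and Hilpda) and in 19.6% of all windows. A direct repeat for PPARγ, AGGTCA and AGGTCA with 1 free base between, searched on both strands, was found in 0 of the 11. These matches describe letters in short windows. Binding was not measured.

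For each gene the 2 genes with the most similar pattern over the 25 arrays were taken out of 18646 genes, as a description over arrays that share line and liver content, with the value after removal of group and wash batch means in second place. For Pnpla3 these were Acacb (r = 0.831, then 0.702, rho 0.535) and Mrps15 (r = 0.82, then 0.722, rho 0.616). For Hilpda they were Vhl (r = 0.934, then 0.899, rho 0.75) and Nid1 (r = 0.915, then 0.846, rho 0.673). Abhd5 was nearest to Plpp6 (r = 0.961, then 0.864, rho 0.803) and Naa20 (r = 0.953, then 0.802, rho 0.787), and Mgll to Ehd2 (r = 0.885, then 0.794, rho 0.755) and Mtss2 (r = 0.879, then 0.751, rho 0.781).

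Lipe was nearest to Gys1 (r = 0.885, then 0.709, rho 0.629) and Bckdk (r = 0.863, then 0.708, rho 0.698), and Pnpla5 to Slc25a39 (r = 0.883, then 0.707, rho 0.674) and Btd (r = 0.865, then 0.622, rho 0.602). Pnpla2 was nearest to Gm4633 (r = 0.878, then 0.878, rho 0.875) and Nudt13 (r = 0.869, then 0.905, rho 0.882), and G0s2 to Zfp607a (r = 0.797, then 0.797, rho 0.708) and Gm15694 (r = 0.786, then 0.822, rho 0.749). Among the 8 genes themselves, the values after removal of group and batch means lay between -0.446 for Pnpla5 with Mgll and 0.465 for Abhd5 with G0s2. The nearest other genes were picked as the highest of 18646, so their values are no measure for these pairs. Within groups, the SD of Mgll was 0.05 to 0.16 and that of Pnpla5 0.32 to 0.48, against a median of 0.14 to 0.18 over all genes.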

How the data were processed

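The authors hybridised Cy3-labelled cRNA to single-colour Agilent mouse arrays. Per the file headers, Feature Extraction 10.10.1.1 gave the spot intensities used here, the median pixel intensity without background subtraction, with flags. An alternative used the log2 values that the authors deposited for 40561 probes; member differences between group means differed from those used here by at most 0.05. Spots were kept with weight 1 (found, positive, well above background) on 21 of 25 arrays or on 75% of a group, flagged outliers were set to missing, and log2 intensities were quantile-normalised. Duplicate probes were merged by the median, leaving 39619 probes. Probes were assigned to genes by the array's gene name, a current symbol or an accession in a RefSeq table. Probe coordinates are mm9 and promoter coordinates GRCm38.p6; exons were not assigned.

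All arrays entered 1 limma 3.58.1 fit (R 4.3.3) with a term for group and another for wash batch. Each of the 4 wash batches held all groups. P-values were adjusted over all tested probes (Benjamini-Hochberg) and called under 0.05, and the brightest kept probe, by its mean, stood for a gene. The number of arrays limits the precision. The labels number the arrays of a group as replicates without saying that each is another mouse, so p-values measure the spread between arrays, which may be technical. The fit was tested on simulated data. Alternatives were other spot filters, the authors' values, other background correction and scaling, no wash batch term, slide or replicate number as a block, array weights, a trended prior, fewer groups in the fit, the mean of a gene's probes and each array left out in turn. Members and gene lists were chosen with earlier results of these data known. Every member was named with all its probes, and of each pathway list up to 4 genes with the smallest adjusted p among those called in the total ChREBP comparison, plus Plin1 and Adrb3. The fits that take account of liver transcripts were added after the data were seen.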

Additional observations from a re-analysis of the deposited data

Results flagged for a closer look

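G0s2 in total ChREBP KO and Hilpda in total ChREBP WT each had 1 array that stood apart from the rest of its group. For G0s2 the low array, replicate 4 at a log2 level of 14.20, lay away from its neighbour by 0.799 of the range of the group. For Hilpda the low array, replicate 2 at 9.87, lay away by 0.634 of the range. Chance flags about 1 in 20 groups. Total ChREBP WT replicate 2 was also the lowest wild-type array of its line for Pnpla3 (13.52) and the highest for the 10 liver genes (13.65). What sets this array apart was not tested.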

How the results depend on the processing

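The number of the 8 lipolysis members called was 2 in total ChREBP KO, 0 in ChREBPβ KO, 0 for the difference of effects and 2 between the wild types. With processed signals it was 1 in total ChREBP KO and 5 between the wild types. With array quality weights it was 4, then 1 for the difference of effects and 5 between the wild types. Leaving out 1 array gave 0 to 2 in total ChREBP KO (0 without WT replicate 3 or KO replicate 1), 0 to 1 for the difference of effects (1 without ChREBPβ WT replicate 6 or KO replicate 8) and 2 to 4 between the wild types (4 without ChREBPβ WT replicate 8). The liver covariate gave 1 for the difference of effects. Without the liver-rich arrays, the counts were 1 in total ChREBP KO, 1 in ChREBPβ KO, 2 for the difference of effects and 0 between the wild types. Of all genes, 6.24%, 1.29%, 4.34% and 4.56% passed in that fit, in the same order. With the liver covariate the shares were 6.12%, 0%, 4.07% and 7.15%. For the other alternatives the share of all genes was not counted, so their counts say nothing particular about these 8 genes. With the replicate block the counts were 3 in total ChREBP KO, 0 in ChREBPβ KO, 0 for the difference of effects and 3 between the wild types. Pairing by replicate number was examined through the deviations of arrays from their group means. Between same-numbered arrays of 2 groups these deviations correlated on average at -0.087, -0.022 and 0.099, over 4, 5 and 6 pairs. Other pairs were at 0.016, 0.006 and -0.012. No pairing was seen, but so few pairs cannot settle it. Signs turned for values near 0. These were Mgll with processed signals (difference of effects -0.01, wild types 0.13) and with the mean of its probes (wild types 0.03), Lipe with the replicate block (ChREBPβ 0.05), and, with array quality weights, the differences of effects of Pnpla2 (-0.02) and Hilpda (-0.01). Without the liver-rich arrays they were Pnpla2 (-0.06) and G0s2 (-0.21) in ChREBPβ KO and the differences of effects of Lipe (0.16), G0s2 (0.03) and Hilpda (-0.20). Leaving out 1 array gave -0.14 to 0.06 for G0s2 in total ChREBP KO, -0.02 to 0.22 for G0s2 and -0.10 to 0.06 for Lipe in ChREBPβ KO, and differences of effects of -0.02 to 0.12 for Pnpla2 and -0.13 to 0.05 for Lipe. Of 368 planned values, 343 kept direction and side of the threshold. The fits that left out 1 array are not in this count. In those fits, the call in total ChREBP KO was kept in 4 of 12 for Pnpla3 and in 7 of 12 for Mgll. With spots of weight 1 on every array only, the brightest probes of Mgll and Hilpda gave no value. The other Mgll probe was not examined in that fit. The causes were not tested.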
